A study of Drosophila melanogaster with 2 samples.

Results

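Binding of Gcm in the fly embryo was examined at the genes of a group of BTB-domain transcription factors, ttk, lola, chinmo, ab, psq, Trl, bab1 and bab2. They were taken as a list of 8 named genes out of 13945 protein-coding genes on the 6 chromosome arms used, by name. A summit, the position of strongest signal in a peak, was assigned to a gene when it lay in the gene body or within 2000 bp upstream (Ensembl annotation of BDGP6, the coordinates of the build dm6). The chromatin came from whole Drosophila melanogaster embryos of 0 to 16 hours, males and females pooled, of a transgenic line that stably carries gcm with GFP fused to its C-terminal end. Antibody against GFP was used for the immunoprecipitation. Biological replicates 1 and 3 formed the only group, both carry the same donor label, and there was no comparison between genotypes, treatments or ages. In whole embryos, binding in fewer cells and weaker binding per cell cannot be told apart.

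BTB proteins pair through their BTB domain and bind DNA through a second domain, and several of them act as repressors. Gcm, glial cells missing, starts the glial programme in the embryonic nervous system, and ttk, whose product represses neuronal genes, is known as one of the genes acting downstream of it. The name zinc finger applies to ttk, lola, chinmo, ab and Trl. The products of psq, bab1 and bab2 bind DNA through a helix-turn-helix of the Pipsqueak type instead.

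All 8 genes held at least 1 IDR-thresholded summit, against 28.2% of all protein-coding genes. IDR, the irreproducible discovery rate, is meant to keep peaks whose ranks repeat between replicates, and the IDR-thresholded list held 5707 peaks. Here these were the 5707 highest peaks of the pooled list, so a single summit on it need not rank alike in both replicates. Long genes offer more room for a summit, and these 8 span from 13.1 kb (Trl) to 64.7 kb (bab1). Among the 1351 protein-coding genes whose body plus upstream sequence was within the same range of length, 56.9% held at least 1 summit and 37.7% at least 2, as all 8 did. The 2 of chinmo belong to overlapping peaks, so they are not 2 separate regions. Together the 8 genes held 32 summits, none shared between members, at 0.849 per 10 kb. The whole of the 6 arms had 0.426 per 10 kb and the median gene in this length range 0.341. The summed density is raised by Trl, at 3.31 per 10 kb. For ttk, lola, ab, psq, bab1 and bab2, 21.2% to 29.6% of the genes in the range were at least as dense. For chinmo, at 0.361 per 10 kb, 48.9% were. The median over the 8 genes was 4.5 summits, against 1 for the genes in the length range. That range runs from 15121 to 66721 bp, and its genes were not matched to the 8 for length within it. All of the 8 but Trl and ttk had 38848 bp or more. These counts and the shares of 56.9% and 37.7% are therefore not free of gene length.

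The count per gene ran from 2 to 5. Trl, lola, psq and bab1 had 5 summits each, ab and bab2 had 4, and ttk and chinmo had 2. The strongest 5707 peaks of each replicate's own list also placed a summit in all 8 genes, where 29.0% (replicate 1) and 28.2% (replicate 3) of protein-coding genes had one. Replicate 1 placed 29 summits in the 8 genes and replicate 3 placed 40. For ttk both replicates gave 3 and for psq both gave 6. The count depended most on the replicate for bab1, with 3 in replicate 1 and 6 in replicate 3 (4.50 ± 2.12, SD, n = 2), for chinmo, with 1 and 2 (1.5 ± 0.707), and for lola, with 4 and 7 (5.50 ± 2.12). In bab2 they were 3 and 5, in ab 4 and 5, and in Trl 5 and 6.

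**Figure D1:**
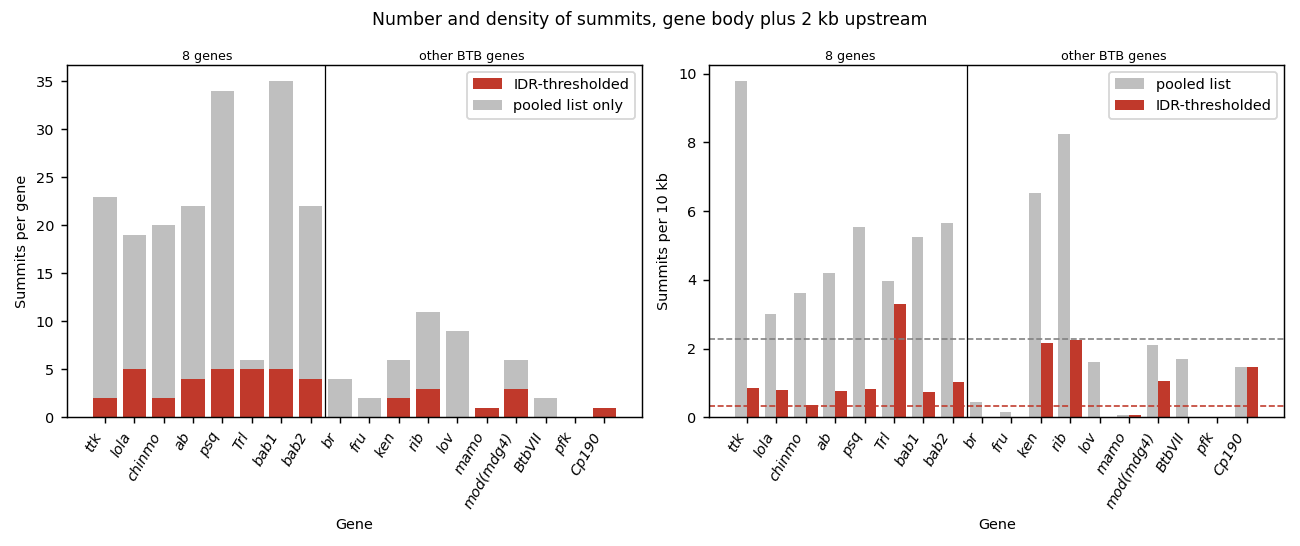
Summits per gene (left) and per 10 kb of gene body plus 2 kb upstream (right) for the 8 genes and for 10 other BTB-domain genes; dashed lines mark the medians over the 1351 genes in the length range of the 8, 2.27 in the pooled list (grey) and 0.341 in the IDR-thresholded list (red). All 8 genes have red bars, and ttk has the tallest density bar of the pooled list (9.78 per 10 kb).

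Peak height set Trl and chinmo apart from the other 6 genes, which differed little from each other. The height is the signal value that the authors' caller gave each peak, on a scale that differs between lists, and it serves here to order peaks of the same list. The median over all IDR-thresholded peaks was 299, and 11 of the 32 summits lay above it. The highest summit of Trl had a height of 2534 and ranked 14 of 5707, that of chinmo had 1041 and ranked 232, and the other 6 genes had highest summits between 281 and 381 at ranks 1896 to 3155.

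Trl and chinmo came first and second in every list. As a multiple of the median height of its own list, the highest summit of Trl stood at 26.8 in replicate 1 and 27.6 in replicate 3 (27.2 ± 0.554, SD, n = 2). That of chinmo stood at 10.8 and 11.4 (11.1 ± 0.406). The other 6 genes lay from 3.14 ± 0.181 (psq) to 4.26 ± 0.616 (lola), and their order changed with the replicate: ab came next after chinmo in replicate 1 (4.76) and behind lola and bab2 in replicate 3 (3.36), while lola was behind bab2 and bab1 in replicate 1 (3.82) and ahead of both in replicate 3 (4.69). Among lola, ab, bab1 and bab2 the differences between genes were within the spread between replicates.

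**Figure D2:**
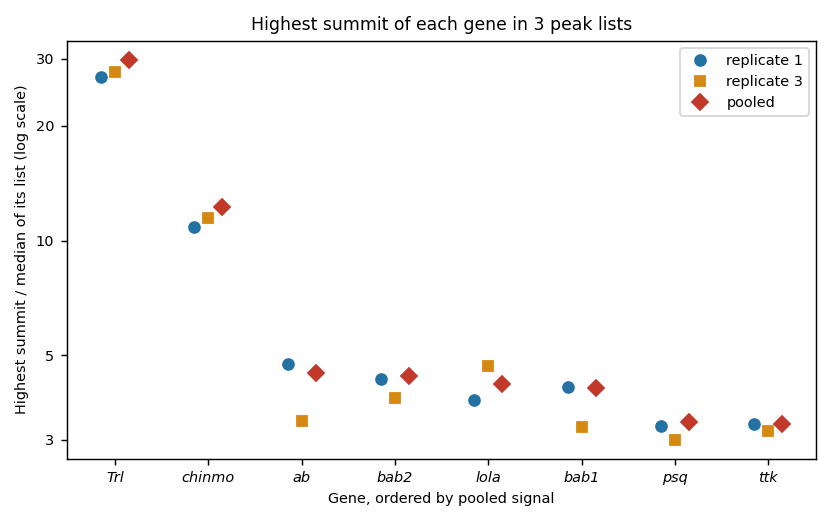
Highest summit of each gene as a multiple of the median height of its list (vertical axis, log scale) in replicate 1, replicate 3 and the pooled list. Trl (26.8 to 29.8) and chinmo (10.8 to 12.3) stand above the other 6 genes (3.01 to 4.76). Among these 6 the points of lola, ab, bab1 and bab2 overlap, and those of ttk (3.17 to 3.30) and psq (3.01 to 3.35) lie below those of lola and bab2.

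All 32 summits had a counterpart within 250 bp in the full list of each replicate, as did 99.0% of all IDR-thresholded peaks. Replicate 1 gave the greater height at 26 of the 32 and replicate 3 at 6, with a median ratio of replicate 1 to replicate 3 of 1.22 and a range from 0.525 to 2.03. Over all IDR-thresholded peaks the median ratio was 1.27. Ranks, which do not depend on the scale, were better in replicate 1 at 14 summits and in replicate 3 at 18. By rank the weaker chinmo summit differed most, with 14207 in replicate 1 and 4669 in replicate 3, at heights of 53.5 and 102. By height the ratio was largest at a bab1 summit, with 121 in replicate 1 and 59.4 in replicate 3.

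**Figure D3:**
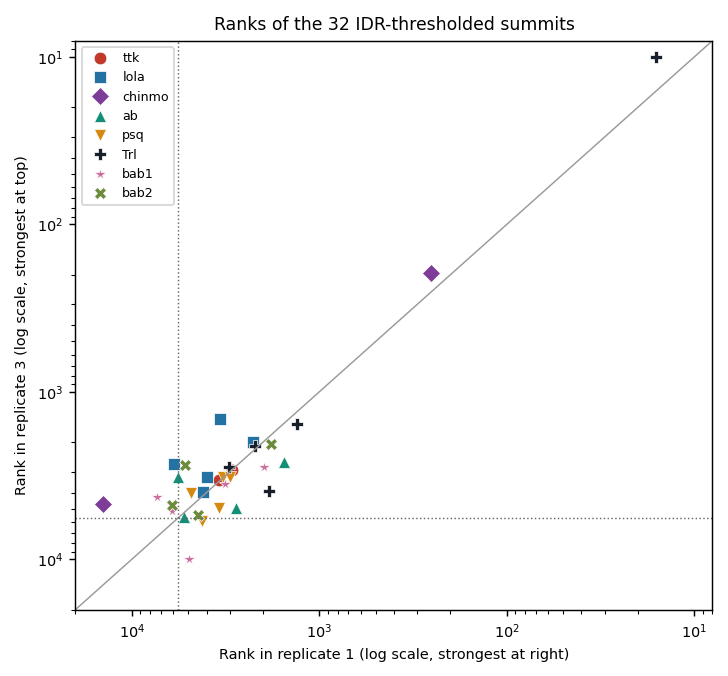
Rank of each of the 32 summits in the full list of replicate 1 (horizontal) and replicate 3 (vertical), both on log scales with rank 1 towards the upper right; dotted lines mark rank 5707 and the diagonal marks equal ranks. The leading Trl summit (16 and 10) and chinmo summit (253 and 195) stand apart, and the others lie between ranks 1317 and 14207 in replicate 1 and between 1456 and 9979 in replicate 3.

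Most of the 32 summits lay in introns and towards the 5' end. Of the 32, 25 lay in introns of the gene, 5 upstream of it and 2 in 5' UTRs. Upstream sequence and the gene body 5' of its midpoint together held 29 (90.6%, 95% exact Clopper-Pearson interval 75.0 to 98, counting error only). The interval takes the 32 summits as independent, which those of the same gene need not be, so it is no test. For all genes in the length range this share was 73.7%. In ttk it was 1 of 2, in ab 3 of 4, in lola 4 of 5 and in the other 5 genes every summit. Over all pooled-list summits of the 8 genes it was lower, 141 of 181 (77.9%), with ab at 59.1% and bab2 at 68.2%. None lay in a coding exon (0 of 32, which allows a share of up to 9.38% when 3 counts are taken as the limit, and up to 10.9% by the exact interval), and of all IDR-thresholded summits 1.17% did. Within 500 bp of a protein-coding transcription start site (TSS) there were 8 (25.0%, interval 11.5 to 43.4), where all IDR-thresholded summits had 39.5%. This share and that for coding exons are not like for like with those of all summits. The 8 genes are long, and the rule leaves out most sequence between genes. The 8 genes have 24 start sites for 74 transcripts, and 8 of these start sites had an IDR-thresholded summit within 500 bp. In the pooled list, called on both replicates together, 20 of the 24 did. The share over all protein-coding start sites was not computed, so these start-site counts have no background and only describe the 8 genes.

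**Figure D4:**
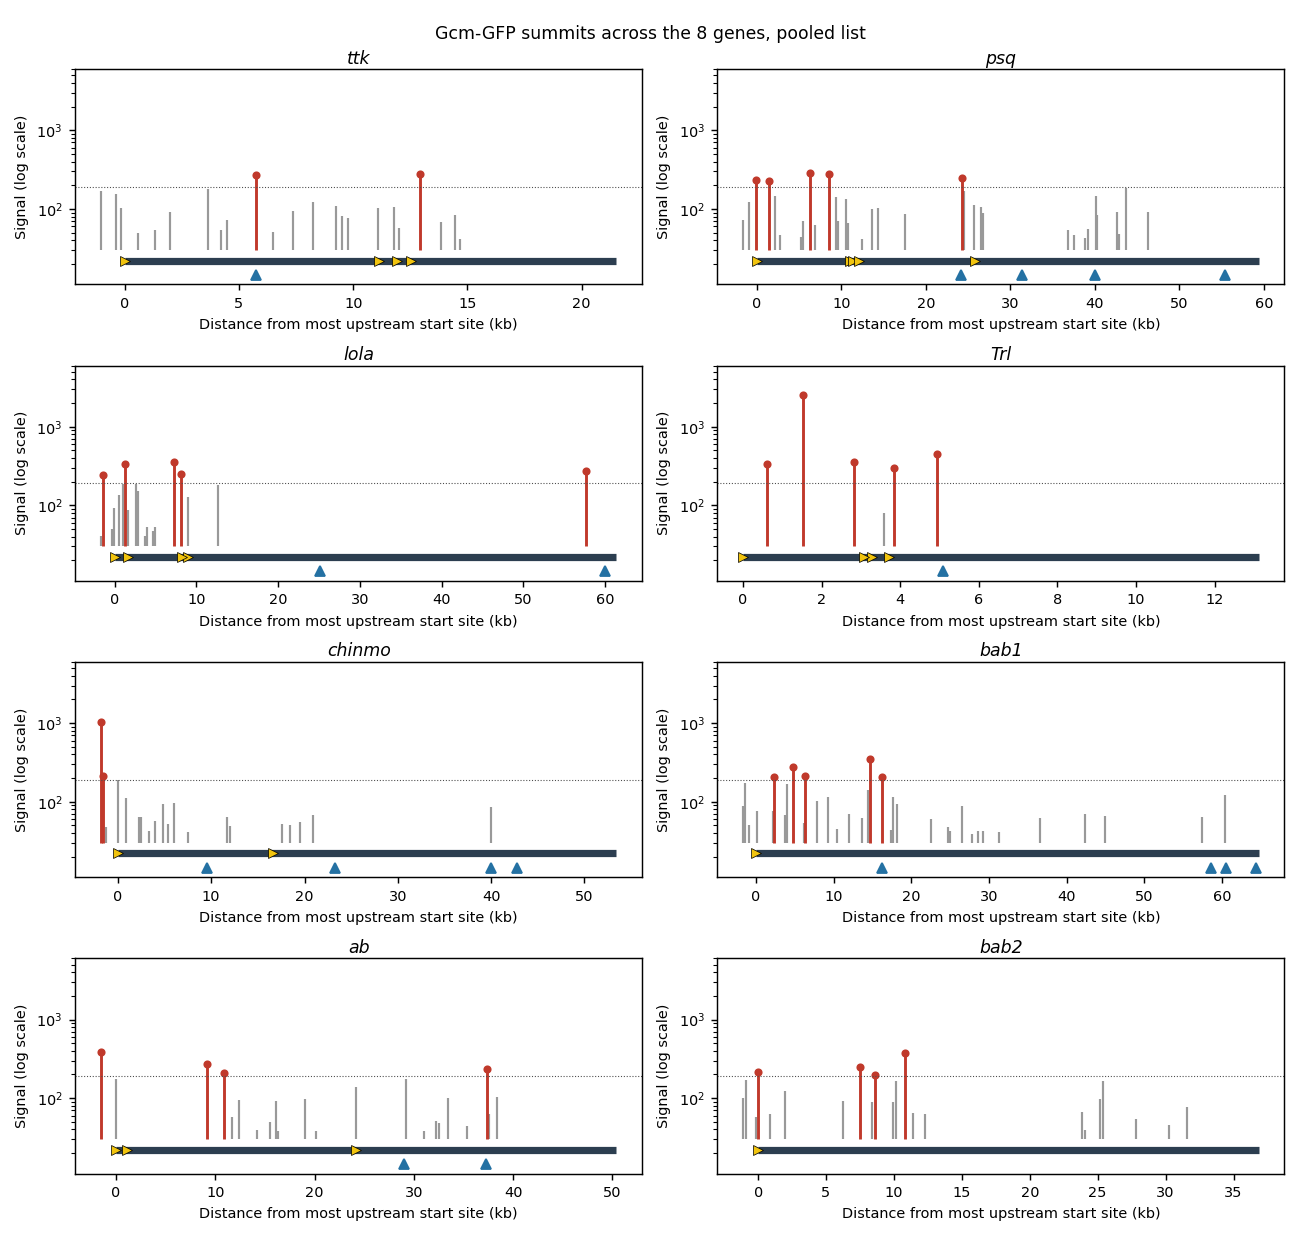
Pooled-list summits along each gene, with distance from its most upstream start site in kb (horizontal, transcription running to the right) and height on a log scale (vertical); red lines with dots are IDR-thresholded summits, grey lines the weaker ones, the dotted line the lowest IDR-thresholded height (190), the dark bar the gene body, yellow arrowheads start sites and blue triangles occurrences of the Gcm consensus. In lola all but 1 of the red lines, and in Trl all 5, lie near the start sites, both red lines of chinmo lie upstream of the gene, and in ttk the one triangle falls under a red line.

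The consensus that Gcm recognises, spelled as the words ATACGGGC, ATACGGGT, ATGCGGGC and ATGCGGGT and sought on both strands, lay within 100 bp of 3 of the 32 summits (9.38%, exact interval 1.98 to 25.0). Over all IDR-thresholded summits it was 9.76%, so the share at these genes was near the background. The 3 summits belonged to ttk, ab and bab1. In windows of equal size 1000 bp to the left, 0 of the 32 held the word, where 1.10% of such windows of all IDR-thresholded summits did. The leading summits of Trl and chinmo had no such word within 250 bp.

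Read the other way round, the 8 genes held 18 occurrences of the consensus (0.478 per 10 kb, against 0.517 over the 6 arms). Of these, 3 lay within 100 bp of an IDR-thresholded summit (16.7%) and 5 within 100 bp of a pooled-list summit (27.8%). Over the 6 arms the figures were 8.36% and 21.3% of 6927 occurrences. At 9 of the 18 no list had a summit within 100 bp. chinmo, psq and bab1 had 4 occurrences each, lola and ab had 2, ttk and Trl had 1 and bab2 had none. Of the 5 at a pooled-list summit, those of ttk, ab, bab1 and chinmo are printed here to show the word that stood under a summit, each as 30 bases of the Release 6 genome read 5′ to 3′ on the strand that carries the word, with the word in capitals.

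ttk, chr3R:31719587-31719616, minus strand: agacattcgaaATGCGGGTcaccgccggac
ab, chr2L:11247932-11247961, minus strand: ctgtctctctcATGCGGGCctttttatggg
bab1, chr3L:1084863-1084892, plus strand: aagctggctagATGCGGGCcagctgtaaaa
chinmo, chr2L:1691178-1691207, plus strand: atggcgaataaATGCGGGCaaacctatata

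All 4 begin with ATGCGGG, and 3 of the 4 end in C. Most of all 18 occurrences also begin with ATGCGGG, and most end in C. Neither is therefore read as a trait of the words at summits. At ttk, ab and bab1 the summit is IDR-thresholded. At chinmo it belongs to the weaker part of the pooled list.

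In ttk (FBgn0003870, chr3R:31713867-31735392, plus strand), the repressor that keeps neuronal genes off in glia, the single occurrence of the consensus over 23526 bp was centred 8.5 bp from a summit. That peak (chr3R:31719550-31719725) had a height of 271 and rank 3359. Its height was 153 in replicate 1 and 125 in replicate 3, at ranks 3447 and 3351. Both replicates thus placed it at nearly the same rank, and the word lay 22.5 and 46.5 bp from their own summits. The summit lies 5743 bp downstream of the first start site, in an intron of 12862 bp that 2 of the 8 annotated transcripts cross. The other start sites of ttk lie further downstream, the nearest 5386 bp away.

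The 101 bases centred on this summit, plus strand, chr3R:31719560-31719660, show the word (in capitals, here in its reverse complement) beside the centre.

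ttk, summit with the Gcm word: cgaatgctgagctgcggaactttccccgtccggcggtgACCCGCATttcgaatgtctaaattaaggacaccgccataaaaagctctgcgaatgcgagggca

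The same window holds aggac, a short word found in binding sites of the Ttk protein itself, to the right of the Gcm word. AGGAC, sought on both strands, lay within 100 bp of 2 of the 32 summits, this one and one of Trl. For all IDR-thresholded summits the share was 8.15%, and it was 18% in the windows 1000 bp to their left. The second ttk peak (chr3R:31726563-31726986) was slightly higher, at 281 and rank 3155, and lay 373 bp downstream of the most downstream start site, with no Gcm word within 250 bp. Its heights of 168 and 135 gave ranks 2928 and 2929 in replicates 1 and 3. Both ttk summits had heights below the median of the IDR-thresholded list, and 68.2% of the 3936 genes with a summit had a higher one than ttk.

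Below the IDR threshold summits were dense in ttk. The pooled list placed 23 summits in it, 2 of them IDR-thresholded, or 9.78 per 10 kb. Only 18 of the 1351 genes in the length range, ttk included, reached that density in the pooled list (1.33%), and the median of the range was 2.27. Most of the ttk peaks had the commonest width of 424 bp with the summit at the centre. The smallest gap between summits was 209 bp, so some neighbouring peaks overlapped and the density is not one of separate regions. The 21 weaker summits had a median height of 83.1 and reached 178 (rank 6237). Every one of the 4 start sites had a pooled summit within 500 bp, at heights of 104, 104, 56.8 and 281, again with no share over all start sites beside it. Of the 21, 17 were found in both replicates (81.0%, against 68.7% of all pooled peaks below the threshold). Some neighbouring summits were matched to the same replicate summit, so these matches are not all separate. Genes with 2 IDR-thresholded summits numbered 721 beside ttk, and those with the most similar highest summits in both replicates were Lar (168 and 139), Ccdc85 (172 and 138) and ICA69 (176 and 135, tied with ko). For ttk these heights were 168 and 135, and the summed log2 differences were 0.0473, 0.0634 and 0.0655 over the 2 replicates.

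Trl (FBgn0013263, chr3L:14747929-14761049, minus strand), which encodes the GAGA factor, a protein that opens chromatin at GA-rich promoters, had the highest peak of the 8 genes. Its leading peak (chr3L:14759296-14759812) had a height of 2534, which is 8.49 times the median of the list. In replicate 1 it was 1366 at rank 16, and in replicate 3 1177 at rank 10. It lies in an intron 1515 bp downstream of the first start site, crossed by 1 of 10 transcripts, and upstream of the 3 start sites used by the others. Of the 3936 genes with a summit, 0.508% had a higher one.

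The other 4 Trl summits were at 445, 357, 336 and 302, all above the list's median. Replicate 1 gave them heights of 265, 198, 219 and 165, and replicate 3 gave 193, 164, 114 and 138. The one of height 336 differed most between replicates, with ranks 1845 and 3929. All 5 summits lay within 4334 bp, on the 5' side of the gene's midpoint, at 3.31 per 10 kb, a density reached by 7 of the 1351 genes in the length range, Trl included. With upstream sequence Trl, at 15121 bp, sets the lower end of that range, so it is ranked against genes as long or longer. Trl had only 6 summits in the pooled list, so 83.3% of them were IDR-thresholded, where ttk had 8.70%. The sequence assigned to another gene, CG42507, annotated on the same strand with the same 3' end and the start site at 14757962, also covers 4 of these summits, and that of the neighbour Mgat4a covers the other one. The windows below, plus strand, are the 101 bases at the leading summit (chr3L:14759484-14759584) and at the summit of height 357 near the start site used by 7 transcripts (chr3L:14758170-14758270), with the word GAGAG in capitals.

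Trl, leading summit: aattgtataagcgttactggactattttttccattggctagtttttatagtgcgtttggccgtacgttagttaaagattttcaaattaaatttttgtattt
Trl, summit near the main start site: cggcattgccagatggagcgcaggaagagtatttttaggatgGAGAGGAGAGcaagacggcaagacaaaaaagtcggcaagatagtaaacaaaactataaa

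GAGAG, the core of the sites that Trl and psq proteins bind, stands in the second window and not in the first. Sought on both strands within 100 bp, it lay at 10 of the 32 summits (31.2%), against 27.3% of all IDR-thresholded summits and 22.4% of the windows to their left. The leading Trl window was rich in A and T, with 24.4% G and C over 201 bp. The one Gcm word of the gene, in an intron, was centred 160 bp from the summit of height 445, 158 bp from its counterpart in replicate 1 and 71.5 bp from that in replicate 3.

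chinmo (FBgn0086758, chr2L:1651258-1704682, plus strand), a regulator of early-born neuronal identity, had both its IDR-thresholded summits upstream of the gene. The leading peak (chr2L:1649198-1649640) had a height of 1041, with 552 in replicate 1 and 487 in replicate 3 at ranks 253 and 195. It lies 1819 bp upstream of the first start site in intergenic sequence. A second summit, 232 bp nearer to the gene, had a height of 215 and is the one whose replicate heights differed as given above. Its peak overlaps the leading one. Without upstream sequence chinmo had no IDR-thresholded summit, so its place among the bound genes depends on the 2000 bp. The leading window, plus strand, chr2L:1649389-1649489, is shown because it is the second highest of the 8 genes and holds neither the Gcm word nor GAGAG.

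chinmo, leading summit: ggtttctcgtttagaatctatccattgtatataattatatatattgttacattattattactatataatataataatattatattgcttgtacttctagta

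This window had 22.9% G and C over 201 bp, the lowest of the 32 together with one of psq. Across all 5707 peaks G and C content and height had a Spearman's rho of -0.182, and across the 32 summits -0.367. These correlations run across peaks of the same libraries, which are not independent. The median G and C content was 40.8% at the 32 summits and 37.3% at all IDR-thresholded summits. Within the gene body of chinmo all pooled summits were below the IDR threshold. The strongest of them (height 189) lay 41 bp from the first start site. The Gcm word at chr2L:1691189-1691196 was centred 1.5 bp from a pooled summit of height 84.8 and rank 15027, 26.5 bp from one of height 32.6 (rank 23208) in replicate 1 and 2.5 bp from one of 59.2 (rank 10040) in replicate 3. The other 3 Gcm words of chinmo, all intronic, had no summit within 100 bp in any list.

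In ab (FBgn0264442, chr2L:11210678-11261080, plus strand), a regulator of dendrite shape in sensory neurons, the leading peak was again upstream. It lay at chr2L:11209023-11209285, 1515 bp upstream of the first start site, with a height of 381 and rank 1896. Replicate 1 gave 242 at rank 1542 and replicate 3 gave 143 at rank 2642, a ratio of 1.69. The other 3 were intronic, at heights of 272 (172 and 98.4 in replicates 1 and 3), 237 and 207 (116 and 90.5). The one of height 237 (chr2L:11247896-11248037), 13177 bp from the nearest start site of ab, carries the Gcm word 81.5 bp from its summit, and 4 copies of GAGAG lie within 100 bp. Its heights were 111 in replicate 1 and 128 in replicate 3. The second Gcm word of ab, also intronic, was 262 bp from the nearest pooled summit.

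bab1 and bab2 are neighbouring paralogues on arm 3L that pattern limbs, ovary and abdominal pigmentation. In both, all IDR-thresholded summits lay on the 5' side of the gene's midpoint. bab1 (FBgn0004870, chr3L:1036369-1101089, minus strand) had 5, all in an intron of 58746 bp between 2405 and 16223 bp from its single start site. The highest (chr3L:1086309-1086548) had a height of 349, with 210 and 138 in replicates 1 and 3, and the others ranged from 205 to 279. The lowest of them, at 205 and rank 5164 (chr3L:1084812-1084918), is the one with the Gcm word, centred 11.5 bp from the summit. It had 91.9 in replicate 1 and 108 in replicate 3, at ranks 7365 and 4258. Of the other 3 Gcm words of bab1, 1 had a summit within 100 bp, in replicate 1 alone (height 87.0, 35.5 bp away).

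bab2 (FBgn0025525, chr3L:1140429-1177276, minus strand) had 4 summits and no Gcm word at all in 38848 bp. Its highest (chr3L:1166322-1166568) was in an intron 10836 bp downstream of the start site, with a height of 374, and 221 and 165 in replicates 1 and 3. The others were at 251 (117 and 139), 196 (105 and 101) and 216 (131 and 92.2), the last 15 bp from the start site, in the 5' UTR. The 39.3 kb between bab1 and bab2 hold no other protein-coding gene. They held 0 IDR-thresholded summits and 9 of the pooled list, upstream summits also counted for bab1 included. bab1 had 35 pooled summits and bab2 had 22, or 5.25 and 5.66 per 10 kb, and 22.9% and 18.9% of the genes in the length range were at least as dense.

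lola and psq lie next to each other on arm 2R, with 14.6 kb and no other protein-coding gene between them. lola (FBgn0283521, chr2R:10481894-10543291, minus strand), whose 24 transcripts join a common BTB part to different zinc fingers, guides axons. Its highest summit (chr2R:10535832-10536042) was intronic, 940 bp upstream of the start site shared by 11 transcripts, with a height of 358. Replicate 1 gave 155 and replicate 3 gave 200, at ranks 3373 and 1456. The next (chr2R:10541900-10542136), at 337, lay 359 bp upstream of the start site of 8 transcripts, with 194 and 168 in the replicates. Another, at 247 (108 and 141), lay 80 bp from the start site shared by 11 and had 8 copies of GAGAG within 100 bp, the most of the 32. A summit of height 240 (136 and 113) lay 1467 bp upstream of the gene. The remaining one, at 277 (140 and 128), was 48747 bp from the nearest start site of lola and 355 bp upstream of that of pre-lola-G, a gene annotated over its 3' part. It was the only one of the 32 whose nearest start site belongs to another gene. Of the 2 Gcm words of lola, the intronic one had a summit within 100 bp in replicate 1 alone (height 69.2, 7.5 bp away), and the one in a coding exon had none in any list.

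psq (FBgn0263102, chr2R:10557888-10617280, plus strand), which binds GAGA sites and recruits silencing complexes, had 5 summits of similar height, from 224 to 284, with 124 to 166 in replicate 1 and 87.4 to 128 in replicate 3. The highest (chr2R:10564125-10564321) had 158 in replicate 1 and 128 in replicate 3, at ranks 3256 and 3212. All 5 lay below the median of the IDR-thresholded list, and none had GAGAG or the Gcm word within 100 bp. One of them, 94 bp upstream of the first start site, was at a promoter, and the others were intronic. psq had 34 pooled summits. A Gcm word stood 112 bp from the IDR-thresholded summit of height 247, and another 43.5 bp from a weaker pooled summit of height 145 and rank 8142. Between lola and psq, upstream summits of both included, 3 IDR-thresholded summits and 17 pooled ones were found, none higher than 248.

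The pooled list as a whole held 181 summits in the 8 genes (4.80 per 10 kb, against 2.24 over the 6 arms). A summit of that list was found in 51.2% of all protein-coding genes. Of the 149 below the IDR threshold, 101 (67.8%) were found within 250 bp in both replicates, against 68.7% of all such peaks. By gene this ran from 44.4% (chinmo) to 81.0% (ttk) among the 7 genes with more than 1. The Gcm word lay at 2 of the 149 (1.34%), those of chinmo and psq given above, against 3.59% of all such peaks. Introns held 79.2% of the 149 and promoters 12.1%, against 46.1% and 21.8% of all such peaks. These shares are not like for like. Summits of the 8 genes were counted only in long gene bodies and 2000 bp upstream, whereas 26.3% of all such peaks were intergenic. The differences are therefore not read as a trait of these genes.

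A further 10 genes of BTB-domain transcription and chromatin factors were looked at in the same way: br, fru, ken, rib, lov, mamo, mod(mdg4), BtbVII, pfk (annotated as CG15812) and Cp190. Of these 5 had an IDR-thresholded summit, and 9 had one in the pooled list, pfk being the exception, against 28.2% and 51.2% of all protein-coding genes. Only lov and mod(mdg4) had lengths within the range of the 8 genes, so the 56.9% for that range is no background for the others. Cp190, an insulator protein gene, had 1 summit of height 1635 (899 in replicate 1, 732 in replicate 3) nearest the start site of CG4338. mod(mdg4), also an insulator factor, had 3, the highest at 1286 (721 and 557), nearest the start site of tin. ken, a repressor, had 2 with the higher at 678, rib, which acts in tracheal cells, had 3 with the highest at 668, and mamo had 1 at 357. The long genes br and fru, at 89.7 and 131 kb, had no IDR-thresholded summit and 4 and 2 pooled ones. In br, replicate 3 alone gave a high summit, at 185 and rank 1679, where the highest of replicate 1 had 84.1 and rank 8340. The Gcm word lay within 100 bp of 0 of the 10 IDR-thresholded summits of these genes, too few to be set apart from the 9.76% of all IDR-thresholded summits.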

How the data were processed

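Peak lists were made by the authors from immunoprecipitated and control alignments on dm6, per the file descriptions deposited with them. Each replicate's list came from that replicate alone, the pooled list from both replicates and the IDR-thresholded list from the other 3. The sources used here do not name the aligner, the caller or the IDR threshold. Peak heights are signal values deposited by the authors. The deposited −log10 q-value has a ceiling that all IDR-thresholded peaks share, and was not used. Read depth is unknown, since the lists hold no read totals.

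Peaks were ranked by height within each list of 30000 (replicates, pooled) or 5707. The IDR-thresholded peaks were the 5707 highest of the pooled list. At 8 of the 32 summits described the peak had the commonest width (424 bp) with the summit at its centre, so its position may be coarse. In the whole pooled list 83.6% of peaks had this width. Neighbouring peaks can overlap, also in the IDR-thresholded list (as in chinmo), so counts of summits are not counts of separate regions. Gene models were those of Ensembl 115 (BDGP 6.54), and sequence was read from the RefSeq copy of Release 6, which has the same coordinates as dm6. 1-based positions are given. The symbol pfk was matched to CG15812 by its RefSeq synonym. Counting and word searches (Python 3.11.15, pandas 2.3.3) were tested on simulated data. No test was made: there was 1 group of 2 replicates, and peaks are not replicates. Intervals cover counting error only and take summits as independent, which those of the same gene need not be.

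The members, the other 10 genes, the words and all rules were chosen with earlier results of these data known. Every summit of the 8 genes was described, with the nearest start site where another gene owns it, and the 3 genes most like ttk were those with equal summit number and the smallest summed log2 difference in highest summit over the replicates. Alternatives changed the territory, list, threshold, window, word, distance and replicates.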

Additional observations from a re-analysis of the deposited data

How the results depend on the processing

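Of 31 alternative values for the counts and median rank over the 8 genes, 25 stayed within 1.5 times the reported value. The 32 summits became 11 when only IDR-thresholded peaks above their list's median height were kept, and 181 in the full pooled list. The 3 summits with the Gcm consensus became 5 with 250 bp each side and 0 in windows 1000 bp to the left. The 8 summits at a protein-coding start site became 4 within 250 bp. The 32 summits found in both replicates became 18 when a reciprocal overlap of 50% of the peak intervals was required, a rule that also compares widths. Each replicate alone gave 29 to 40 summits, 8 bound genes, a median rank of the highest summit of 1898 to 2351.5 (2037.5 as reported), 2 to 4 summits with the consensus and 8 to 10 at start sites. By gene, 39 of 56 values stayed within 1.5 times. Without upstream sequence chinmo had 0 summits and 7 genes were bound. Above the median height ttk and psq had 0 and 6 genes were bound. Without replicate 3, chinmo had 1 summit and bab1 had 3. No paired analysis was possible because there is 1 group. With no read totals, depth limits cannot be given.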
